A study of Mus musculus with 15 samples.

Results

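Immediate early genes are transcribed within minutes of a signal, before any new protein has to be made, because the kinases and transcription factors that switch them on already wait in the cell. Most encode transcription factors that are short-lived as RNA and as protein, and in skeletal muscle they are known to be induced by contraction, stretch, injury and catecholamines. Fos, Fosb, Jun and Junb encode subunits of AP-1, the dimeric leucine zipper factor. Egr1 is a zinc finger factor, Atf3 a stress-induced factor of the ATF/CREB family, and Ier2 a nuclear protein of the early response. Nr4a1 (Nur77), Nr4a2 (Nurr1) and Nr4a3 (Nor-1) are orphan nuclear receptors that act without a known natural ligand, so their activity follows largely from how much is made.

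The 10 genes were taken by their symbols from a table of 47643 symbols, and all 10 were found. All 10 passed a filter of at least 1 TPM in at least 3 of 15 libraries, as did 11923 symbols in all. TPM (each library sums to 1000000) is a length-corrected share of the RNA of a library. The tissue was tibialis anterior, a fast muscle of the lower hind limb, from female C57BL/6J mice labelled as 7 weeks old, in a study of muscle wasting caused by a melanoma. Mice with the melanoma xenograft and the drug Lisinopril, an inhibitor of angiotensin-converting enzyme, gave 4 libraries, and mice with the melanoma alone gave 4. Mock-injected mice given Lisinopril gave 3 libraries, and mock-injected controls gave 4. Muscles were taken 49 days after implantation, per the series design text, while the extraction protocol in the labels names 3 weeks after injection of LLC cells. The labelled age of 7 weeks equals those 49 days, so it is unlikely to be the age at collection. This was not resolved. The sources used here name neither the melanoma line, nor the dose and route of the drug, nor the hour of tissue collection. The labels call the libraries biological replicates and do not say more about their origin.

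Muscle fibre transcripts (8 of 8 markers kept) summed to between 53730 and 112100 TPM in the 15 libraries. Of 6 melanocyte markers none was kept, Tyr was listed at 0 everywhere, and their sum reached at most 1.23 TPM. Neutrophil markers (5 of 6 kept) summed to 32.2 to 182 TPM with melanoma and lisinopril and 104 to 347 TPM with melanoma, against 10.4 to 58.3 TPM with lisinopril and 21.2 to 97.2 TPM in controls. Macrophage markers (6 of 6 kept) summed to 56.7 to 117 TPM with melanoma and lisinopril and 73.5 to 166 TPM with melanoma, against 24.4 to 70.2 TPM with lisinopril and 33.1 to 150.5 TPM in controls. Lymphocyte markers (3 of 7 kept) did not overlap by tumour, with 2.84 to 21.4 TPM with melanoma and lisinopril and 3.10 to 11.8 TPM with melanoma, against 33.9 to 229 TPM with lisinopril and 39.99 to 188 TPM in controls. Endothelial markers (6 of 6 kept) overlapped between all groups, from 71.3 to 175 TPM. Control 2 stood apart with 23990 TPM of red blood cell transcripts, where no other library passed 4212 TPM. Control 2 and melanoma 2 each had a mean correlation of 0.938 to their own group, and every other library at least 0.965. In bulk tissue, fewer cells of a type and less RNA per cell cannot be told apart.

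The promoter windows are shown because all 3 NR4A genes carry the same short motif 4 times. RefSeq windows of 300 bases (250 before the RefSeq gene start and 50 after, build GRCm38.p6) were on hand for 8 of the 10 genes, without Egr1 and Ier2. The motif searched was TGACG on either strand, the core of the cAMP response element that CREB and ATF proteins bind. It stood 4 times in each of the Nr4a1, Nr4a2 and Nr4a3 windows, 2 times in Fos, once each in Fosb, Junb and Atf3, and not at all in the Jun window. Of all 32851 windows, several of which can belong to 1 gene, 20.8% held it at least once and 0.231% at least 4 times. The full palindrome TGACGTCA, which holds the motif on both strands, was in none of the 8 windows and in 1.79% of all windows. Below are Nr4a3, which differed most between groups, Nr4a1, the member whose levels ran closest to it, and Fos, the other member called, each read 5′ to 3′ on the plus strand with TGACG or its reverse complement in capitals.
Nr4a3: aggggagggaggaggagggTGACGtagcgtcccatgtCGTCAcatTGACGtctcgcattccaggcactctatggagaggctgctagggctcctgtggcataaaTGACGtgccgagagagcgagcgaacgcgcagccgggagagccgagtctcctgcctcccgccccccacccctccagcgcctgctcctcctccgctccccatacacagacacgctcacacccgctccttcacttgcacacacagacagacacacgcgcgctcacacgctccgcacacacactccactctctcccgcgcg
Nr4a1: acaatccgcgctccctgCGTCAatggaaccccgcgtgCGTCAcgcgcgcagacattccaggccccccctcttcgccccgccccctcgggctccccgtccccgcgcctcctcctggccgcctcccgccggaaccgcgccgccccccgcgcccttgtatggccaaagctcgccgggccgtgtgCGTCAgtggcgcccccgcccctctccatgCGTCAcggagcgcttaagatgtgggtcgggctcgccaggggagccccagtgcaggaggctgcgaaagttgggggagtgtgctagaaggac
Fos: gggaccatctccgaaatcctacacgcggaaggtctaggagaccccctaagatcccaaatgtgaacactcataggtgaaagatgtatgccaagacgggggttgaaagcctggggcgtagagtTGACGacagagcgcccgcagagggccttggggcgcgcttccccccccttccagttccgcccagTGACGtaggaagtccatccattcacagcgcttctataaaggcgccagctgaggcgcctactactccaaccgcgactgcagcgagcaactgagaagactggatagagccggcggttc
These are chr4:48045055-48045354, chr15:101266596-101266895 and chr12:85473640-85473939, all on the plus strand. Counted from the RefSeq start of each window, the 4 motifs of Nr4a3 began 231, 213, 205 and 147 bases before it, those of Nr4a1 233, 213, 69 and 40 bases before it, and those of Fos 129 and 66 bases before it. A match of letters is a description and not a binding site.

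On the GENCODE M21 annotation of the same build, Nr4a3 spans chromosome 4 from 48045153 to 48086447, Nr4a1 chromosome 15 from 101254269 to 101274795, Nr4a2 chromosome 2 from 57106830 to 57124003, and Fos chromosome 12 from 85473890 to 85477273. The RefSeq start of the window equals the GENCODE gene start for Fos and Nr4a2, but lies 152 bases inside the GENCODE gene for Nr4a3 and 12577 bases inside it for Nr4a1. For Atf3 it lies 34706 bases inside the GENCODE gene. Against the GENCODE start, 3 of the 4 motifs of Nr4a3, 0 of the 4 of Nr4a1 and 0 of the 1 of Atf3 lie before the gene. Junb overlaps Prdx2 on the opposite strand, which reached 151 TPM, and Jun overlaps the antisense RNA Junos, which reached 1.55 TPM. The library kit was stranded, but whether the authors counted by strand is not stated, so reads of these pairs may be shared.

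Fos had the highest median over the 15 libraries at 318 TPM, followed by Nr4a1 at 266 TPM, Junb at 184 TPM, Egr1 at 178 TPM, Jun at 150.0 TPM, Atf3 at 95.3 TPM, Fosb at 78.4 TPM and Ier2 at 77.9 TPM. Nr4a3 lay far lower at 18.4 TPM and Nr4a2 lower still at 2.06 TPM. With genes placed in order of mean log2(TPM + 1), 4 of the 9 steps between neighbours exceeded their spread over libraries by an exact two-sided sign-flip permutation test, adjusted over the 9. They were Nr4a1 above Junb (in 13 of 15 libraries, adjusted p = 0.00412), Jun above Atf3 (12 of 15, adjusted p = 0.00412), Ier2 above Nr4a3 (13 of 15, adjusted p = 0.00275) and Nr4a3 above Nr4a2 (15 of 15, adjusted p = 5.49e-04). The other neighbours did not separate, for example Fos and Nr4a1 (Fos higher in 8 of 15, adjusted p = 0.687). The order was set on these same values, and the test took the 15 libraries as 1 set without regard to group. Nr4a3 exceeded Ier2 only in melanoma plus lisinopril 1 (117 against 65.8 TPM) and 3 (69.1 against 45.9 TPM).

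The members differed in their spread over all libraries, groups included. Nr4a1 had the smallest coefficient of variation over the 15 libraries, 26.7%, followed by Ier2 at 31.4%. Nr4a3 and Atf3 had the largest, 96.5% and 96.1%. For Nr4a3 this spread holds the difference between group means, since its coefficient of variation within groups was 42.9 to 48.5%. Within groups, Atf3 reached 88.7% with melanoma and lisinopril, and Nr4a2 reached 100.2% in controls.

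**Figure D1:**
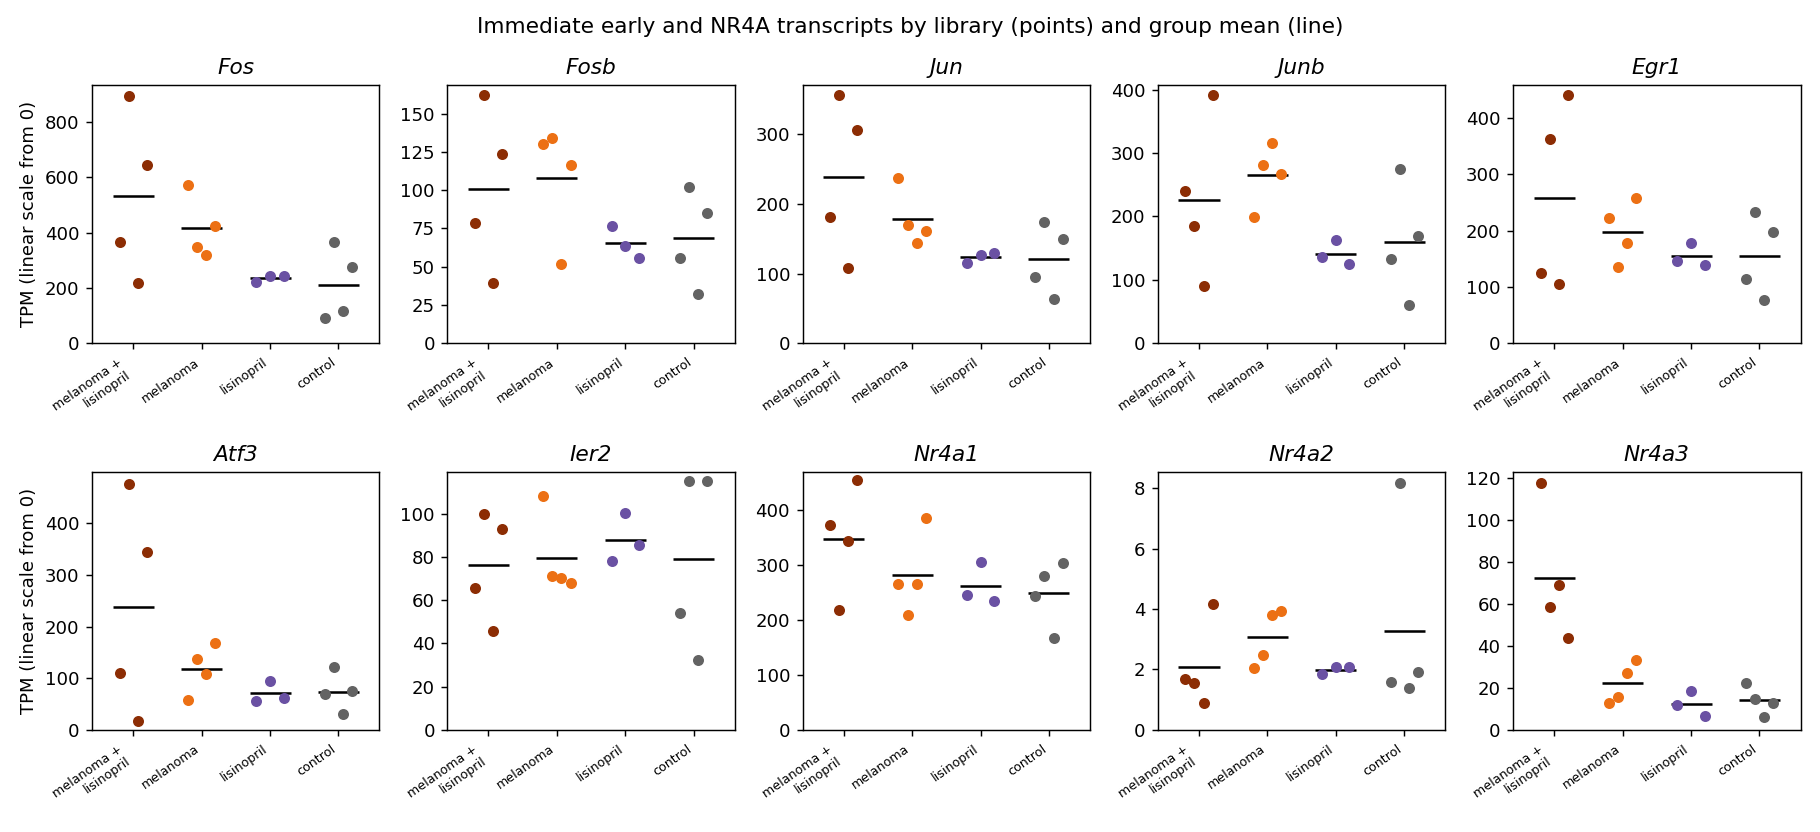
TPM on a linear axis from 0 for each gene, with 1 point per library and a line at the group mean, for melanoma with lisinopril (n = 4), melanoma (n = 4), lisinopril (n = 3) and control (n = 4). Nr4a3 lies between 43.9 and 117 TPM with melanoma and lisinopril, above the 11 other libraries, while the Fos, Jun and Egr1 points of that group spread widely.

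Nr4a3, the receptor known in muscle from exercise and beta-adrenergic signals, was the member that differed most. It had 117, 58.3, 69.1 and 43.9 TPM with melanoma and lisinopril, and 12.99, 15.6, 26.9 and 33.2 TPM with melanoma. It had 12.1, 18.4 and 6.54 TPM with lisinopril, and 22.4, 14.9, 5.97 and 12.7 TPM in controls. The 4 libraries with tumour and drug were all above the 11 others, while melanoma and control libraries overlapped. Over all 11923 kept genes 5 were placed so (0.0419%), and that pattern was noticed after the values were seen. This share was not set against the one that a random grouping of libraries would give, so it is no measure of rarity.

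Between mice given the drug, with and without tumour, Nr4a3 averaged 72.2 ± 31.8 TPM with melanoma and lisinopril (SD, n = 4) and 12.3 ± 5.94 TPM with lisinopril (n = 3). The log2 fold change was 2.47 ± 0.44 (SE), or 2.23 above the median gene, with a limma adjusted p = 0.0235. Fold changes are on the log2(TPM + 1) scale, which understates those of low genes. Nr4a3 was the 1 member of 10 called in this comparison, where 1.34% of all genes were called higher, 0.143% lower and 1.48% in either direction. It was also the 1 member with an unadjusted p below 0.05, against 23.3% of all genes. The groups did not overlap, which held for 29.0% of all genes in this direction. The call ended with no filter (adjusted p = 0.0729), without lisinopril 1 (log2 fold change 2.50, adjusted p = 0.122), without lisinopril 3 (2.11, adjusted p = 0.112), without melanoma plus lisinopril 1 (2.20, adjusted p = 0.0842) and without melanoma plus lisinopril 2 (2.54, adjusted p = 0.0507). Over all 26 alternatives the change stayed between 2.11 and 2.79, with adjusted p from 0.00164 to 0.122.

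Without the drug the tumour effect on Nr4a3 was smaller in value and was not called. Nr4a3 averaged 22.2 ± 9.51 TPM with melanoma and 14.01 ± 6.79 TPM in controls (SD, n = 4 each), a log2 fold change of 0.66 ± 0.41 (95% interval -0.21 to 1.53, limma adjusted p = 0.377). The difference between the 2 tumour effects, the interaction, was 1.81 ± 0.60 for Nr4a3 (95% interval 0.52 to 3.09), with an unadjusted p = 0.00908 and a limma adjusted p = 1.000 over all genes. It therefore failed the correction. The 2 effects share no libraries.

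Within tumour-bearing mice, the drug comparison asks what lisinopril added. Nr4a3 had a log2 fold change of 1.66 ± 0.41 with melanoma and lisinopril over melanoma (95% interval 0.79 to 2.53), and the groups did not overlap, which held for 0.193% of all genes in this direction. Its unadjusted p was 0.00106 and its limma adjusted p was 1.000, so it was not called. No gene of the 11923 was called in this comparison (0.0%), and 189 (1.59%) had an unadjusted p below 0.05, Nr4a3 being the 1 member among them. Without tumour, lisinopril over control gave Nr4a3 a log2 fold change of -0.15 ± 0.44 (95% interval -1.09 to 0.80, limma adjusted p = 0.915), whose sign turned with median-ratio rescaling and quantile normalization.

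For the close relatives no comparison gave a call. Nr4a1, the receptor of the family with the highest level here, had 371, 218, 344 and 455 TPM with melanoma and lisinopril and 266, 209, 265 and 385 TPM with melanoma. It had 245, 306 and 233 TPM with lisinopril and 243, 280, 167 and 303 TPM in controls. All 4 groups overlapped, and the mean tumour effect was 0.27 ± 0.18 (95% interval -0.11 to 0.66, limma adjusted p = 0.270). Nr4a2 lay between 0.900 and 8.18 TPM in the 15 libraries, with its highest value in control 2, and its mean tumour effect of 0.04 ± 0.28 (95% interval -0.55 to 0.64, limma adjusted p = 0.926) turned sign under 3 other scalings of the table.

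The ratio of 2 transcripts in the same library does not depend on how libraries are scaled. Nr4a3 over Nr4a1 was 0.316, 0.267, 0.201 and 0.0966 with melanoma and lisinopril, and 0.0489, 0.0744, 0.101 and 0.0861 with melanoma. It was 0.0493, 0.0602 and 0.0280 with lisinopril, and 0.0924, 0.0533, 0.0357 and 0.0419 in controls. In 3 of the 4 libraries with tumour and drug the ratio was thus above every other library, and in replicate 4 it was not. The ratio was chosen after the values were seen and was not tested.

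Fos, the AP-1 subunit that gives early response dimers much of their activity, had 364, 893, 218 and 645 TPM with melanoma and lisinopril and 572, 346, 318 and 423 TPM with melanoma. It had 222, 243 and 244 TPM with lisinopril and 90.7, 367, 115 and 274 TPM in controls. In 4 of 8 tumour-bearing libraries Fos was above all 7 tumour-free ones, and the groups overlapped.

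The mean of the 2 tumour effects, with and without the drug, pools both arms and does not require a difference in each, with 8 tumour-bearing and 7 tumour-free libraries. It called 2 of the 10 members, Fos and Nr4a3, both higher, where 14.5% of all genes were called higher, 18.0% were called in either direction and the median gene stood at 0.17. At an unadjusted p below 0.05 there were 4 members, Fos, Jun, Junb and Nr4a3, against 38.0% of all genes. None of the 10 members had all 8 tumour-bearing libraries above all 7 tumour-free ones, against 1.49% of all genes. Nr4a3, for which the arms gave 2.47 with the drug and 0.66 (not called) without it, rose by 1.56 ± 0.30 in log2 units (1.39 above the median gene, limma adjusted p = 0.00580), with 6 of 8 tumour-bearing libraries above all tumour-free ones. It was called in all 25 alternatives run for this effect, at adjusted p from 4.48e-04 to 0.0191. Fos rose by 1.06 ± 0.33 (0.90 above the median gene, limma adjusted p = 0.0394), but the call ended with no filter (adjusted p = 0.0816), median-ratio rescaling (log2 fold change 0.86, adjusted p = 0.0674), quantile normalization (0.82, adjusted p = 0.0673) and without the mitochondrial genome (0.93, adjusted p = 0.0543). It also ended without any 1 of control 1, control 3, lisinopril 1, lisinopril 2, lisinopril 3, melanoma 1, melanoma 2, melanoma plus lisinopril 1, melanoma plus lisinopril 2 and melanoma plus lisinopril 4, with adjusted p from 0.0503 to 0.0897. The change of Fos stayed between 0.79 and 1.27 in the 25 alternatives. Lymphocyte marker sums separated by tumour as given above, while neutrophil and macrophage sums overlapped between tumour-bearing and tumour-free libraries, and their part in these values was not tested.

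The other AP-1 subunits had values in the same direction without a call. Jun, the usual partner of Fos, had 182, 356, 108 and 306 TPM with melanoma and lisinopril and 238, 169, 143 and 162 TPM with melanoma, against 116, 127 and 129 TPM with lisinopril and 94.7, 174, 63.8 and 150.0 TPM in controls (0.72 ± 0.26, 95% interval 0.17 to 1.27, limma adjusted p = 0.0621). Junb, a subunit linked to muscle mass, had 240, 184, 90.7 and 391 TPM with melanoma and lisinopril and 199, 281, 316 and 267 TPM with melanoma, against 136, 162 and 125 TPM with lisinopril and 132, 275, 60.4 and 169 TPM in controls (0.71 ± 0.31, 95% interval 0.04 to 1.37, limma adjusted p = 0.111). Fosb, whose short isoform can accumulate after repeated stimuli, gave 0.56 ± 0.32 (95% interval -0.12 to 1.24, limma adjusted p = 0.204). The groups overlapped in each of the 3 genes.

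Single libraries weighed on these values. Without control 2, Jun (log2 fold change 0.82, limma adjusted p = 0.0269) and Junb (0.87, adjusted p = 0.0350) were called as well as Fos and Nr4a3. Without melanoma plus lisinopril 3, Jun (0.88, adjusted p = 0.0192), Junb (0.89, adjusted p = 0.0398) and Atf3 (1.31, adjusted p = 0.0283) were called, which made 5 of 10. Without both control 2 and melanoma 2, the libraries that stood apart, 4 of 10 were called, with Jun at 0.83 (adjusted p = 0.0341) and Junb at 0.85 (adjusted p = 0.0491).

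Atf3, which is also a marker of stressed and denervated muscle, varied widely among libraries with tumour and drug. It had 111, 477, 17.7 and 345 TPM with melanoma and lisinopril, which held both the highest and the lowest of all 15 values, and 57.1, 137, 109 and 169 TPM with melanoma. It had 56.7, 95.3 and 61.6 TPM with lisinopril and 69.8, 122, 30.2 and 75.2 TPM in controls. The mean tumour effect was 0.83 ± 0.56 (95% interval -0.37 to 2.04, limma adjusted p = 0.286). Egr1, which ranged from 105 to 441 TPM with melanoma and lisinopril and 135 to 257 TPM with melanoma, against 139 to 178 TPM with lisinopril and 76.9 to 234 TPM in controls, gave 0.46 ± 0.32 (95% interval -0.23 to 1.15, limma adjusted p = 0.308). Ier2 averaged 76.1 ± 25.0 TPM with melanoma and lisinopril and 79.4 ± 19.2 TPM with melanoma (SD, n = 4 each), against 87.9 ± 11.3 TPM with lisinopril (n = 3) and 79.2 ± 42.4 TPM in controls (n = 4). Its effect was -0.05 ± 0.26 (95% interval -0.61 to 0.51, limma adjusted p = 0.903), with a sign that changed when single libraries were left out.

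**Figure D2:**
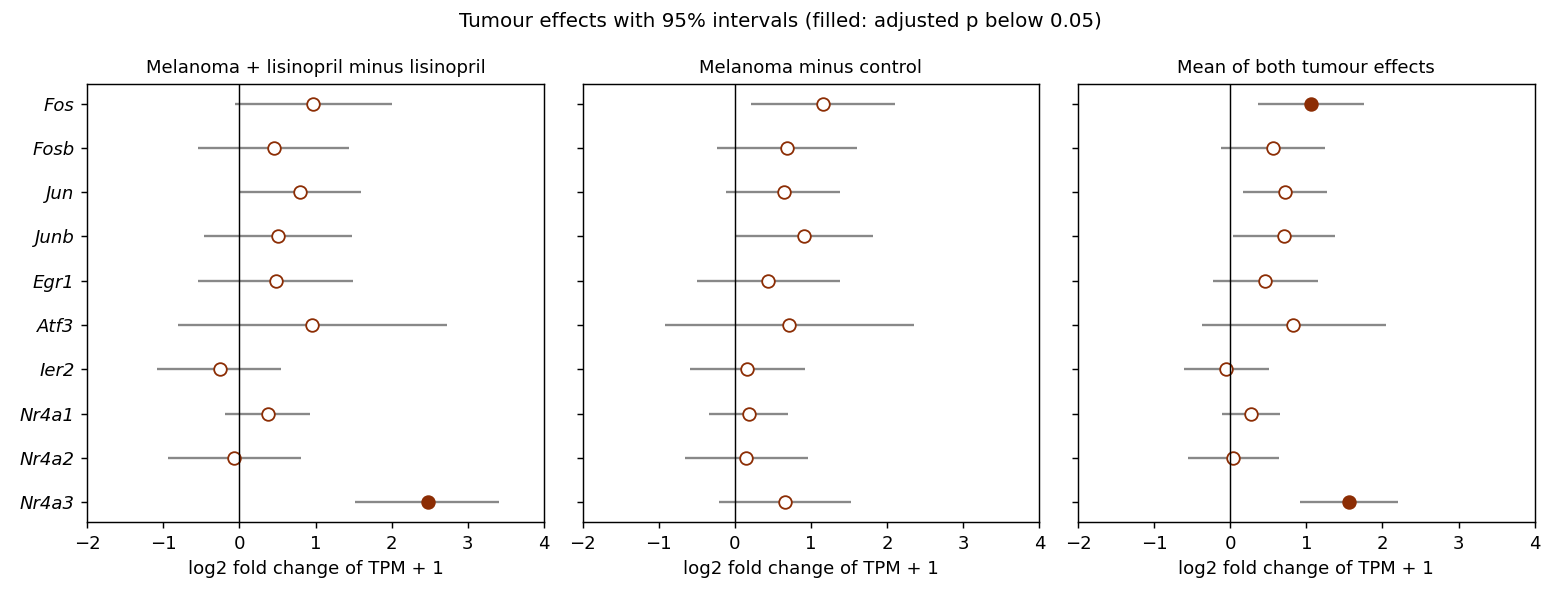
Log2 fold change of TPM + 1 (points) with 95% intervals (bars) for each gene in melanoma with lisinopril minus lisinopril, melanoma minus control, and the mean of both, with filled points where the limma adjusted p is below 0.05. Filled points are Nr4a3 in the first panel (2.47) and Nr4a3 (1.56) and Fos (1.06) in the third.

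Melanoma against control alone asks for the tumour effect without the drug, and limma called 0 of the 10 members, where 0.461% of all genes were called higher and 0.646% in either direction. In 0 of 10 members were all melanoma libraries above all controls, against 5.33% of all genes. At an unadjusted p below 0.05 there were 2 members by limma, where 18.5% of all genes had such a p. They were Fos (1.16 ± 0.45, limma adjusted p = 0.199) and Junb (0.91 ± 0.42, limma adjusted p = 0.266), and each was above every control in 2 of 4 melanoma libraries. Lisinopril against control, in mice without tumour, had limma calls for 0 of 10 members and 0.0% of all genes. There 0 of 10 members had an unadjusted p below 0.05, against 3.87% of all genes. The interaction likewise had 0 calls by limma among members and among all genes (0.0%), with Nr4a3 the 1 member at an unadjusted p below 0.05 (1.27% of all genes).

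Some libraries were high or low for many of the genes at once. Control 3 held the lowest of 15 values for 7 of the 10 genes, and a mean deviation of -1.24 in log2 units from the gene means. Melanoma plus lisinopril 4 and 2 had the highest mean deviations, 0.96 and 0.82, and between them the highest values of 7 genes. Melanoma plus lisinopril 3 had a mean deviation of -0.56 and the lowest value of 2 genes. Control 3 also had the highest mitochondrial share of the 15 libraries, 52.8%, and melanoma plus lisinopril 4 the lowest, 28.5%, and the part of this in the deviations was not tested.

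**Figure D3:**
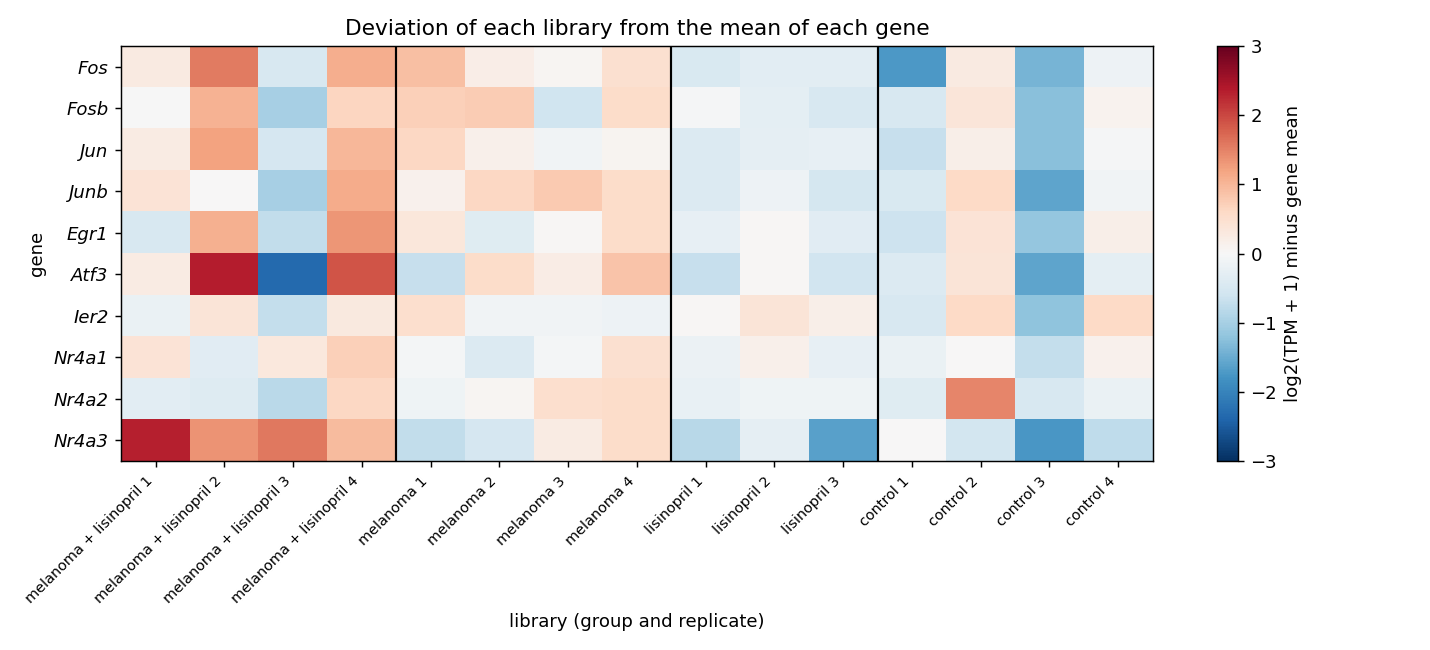
Deviation of log2(TPM + 1) from each gene's mean over 15 libraries (colour, red above and blue below), with genes down and libraries across, grouped as melanoma with lisinopril, melanoma, lisinopril and control. Control 3 is blue in every row (mean deviation -1.24), and in melanoma plus lisinopril 3 the Nr4a3 cell is red while the AP-1, Egr1 and Atf3 cells are blue.

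Over the 15 libraries, Fos and Jun were the closest pair, with Pearson's r = 0.95 and Spearman's rho = 0.97 (permutation p = 1.0e-05 for each, the smallest that 100000 permutations can give, adjusted p = 4.5e-04 over 45 pairs). Without the 2 libraries farthest from the median of Fos r was 0.98, and it was 0.98 in the 8 tumour-bearing and 0.87 in the 7 tumour-free libraries. Among the 7 genes outside the NR4A family, 20 of 21 pairs passed by r and 16 by rho at an adjusted permutation p below 0.05, with r from 0.53 to 0.95. For these 21 pairs r ranged from 0.35 to 0.98 in tumour-bearing and from 0.64 to 0.98 in tumour-free libraries, and from 0.29 to 0.98 without the 2 farthest libraries. The weakest after that step was Junb with Ier2, at r = 0.29 (r = 0.59 and rho = 0.34 before it, permutation p = 0.0218 and 0.221, adjusted 0.0446 and 0.284). For this pair r was 0.47 in tumour-bearing and 0.89 in tumour-free libraries, and 0.72 with the group means taken out. All values of a library share its scaling, so part of any such r may be common to many genes. The share of passing pairs among other genes was not computed, so the count cannot be called particular to the members. The permutations also disregarded the groups.

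For Nr4a3 few such relations passed. Its r with the 9 other members ran from -0.09 to 0.62, and 1 of 9 pairs passed by r, the one with Nr4a1 (r = 0.62, permutation p = 0.0129, adjusted p = 0.0276, and rho = 0.55, permutation p = 0.0357, adjusted p = 0.0765). That r was 0.50 without the 2 farthest libraries, 0.48 in tumour-bearing and 0.68 in tumour-free libraries. With the group means taken out it was 0.48. The permutations did not keep libraries within their groups, so these p-values also reflect differences between group means. With Fos, Nr4a3 had r = 0.41 (permutation p = 0.125, adjusted p = 0.188) and rho = 0.37 (permutation p = 0.173, adjusted p = 0.245). Within tumour-bearing libraries r was -0.10 and within tumour-free ones -0.01, and it was 0.41 without the 2 farthest libraries. With the group means taken out r was -0.20. For Nr4a2, which lay near 2 TPM, the pair with Junb passed by both measures. It had r = 0.72 (permutation p = 0.00261, adjusted p = 0.0090) and rho = 0.77 (permutation p = 9.6e-04, adjusted p = 0.0074). Egr1 with Nr4a2 passed by rho (0.62, permutation p = 0.0152, adjusted p = 0.0403) and not by r (0.54, permutation p = 0.0364, adjusted p = 0.0712).

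**Figure D4:**
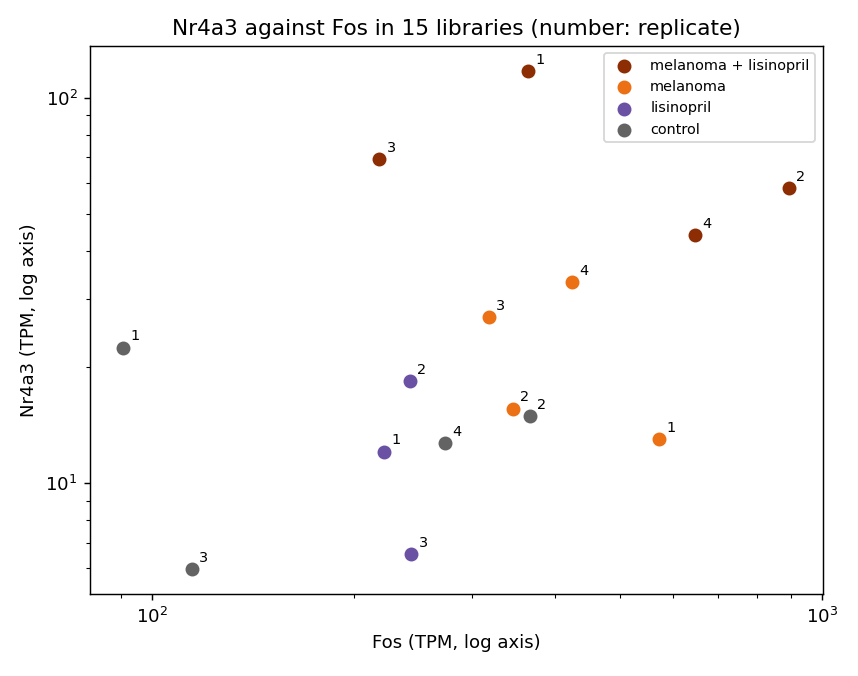
Nr4a3 against Fos in TPM, both on log axes, with 1 point per library numbered by replicate and coloured by group. Melanoma plus lisinopril 3 has 218 TPM of Fos, below all 3 lisinopril libraries, and 69.1 TPM of Nr4a3, above all of them.

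The genes whose levels ran closest to these members across the 15 libraries were ranked by Pearson's r among 7507 genes with a mean of at least 5 TPM, as a description. For Fos they were Dusp1, the phosphatase that switches off MAP kinases (r = 0.907, rho = 0.882), Il15ra, a subunit of the interleukin-15 receptor (r = 0.872, rho = 0.832), and Cry1, a repressor of the circadian clock (r = 0.867, rho = 0.871). For Nr4a3 they were Thbd, thrombomodulin of the endothelial surface (r = 0.834, rho = 0.825), Klf4, a zinc finger factor (r = 0.775, rho = 0.679), and Pde4d, a phosphodiesterase that breaks down cAMP (r = 0.771, rho = 0.739). Pde4d averaged 49.8 ± 12.4 TPM with melanoma and lisinopril and 26.4 ± 6.29 TPM with melanoma (SD, n = 4 each), against 17.4 ± 3.77 TPM with lisinopril (n = 3) and 20.4 ± 0.887 TPM in controls (n = 4). With the group means taken out, the r with Nr4a3 was 0.72 for Thbd, 0.46 for Klf4 and -0.04 for Pde4d, and the r with Fos was 0.85 for Dusp1, 0.78 for Il15ra and 0.77 for Cry1.

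Other genes of the early response gave a mixed picture in the mean tumour effect, where 14.5% of all genes were called higher and 3.45% lower. Of 19 kept early response transcription factors (20 listed), 6 rose and none fell by limma, with a median change of 0.54 against 0.17 over all genes. They included Nfil3, a repressor tied to the clock (1.95 ± 0.39, adjusted p = 0.00704, with 7 of 8 tumour-bearing libraries above all tumour-free ones), Cebpd, a factor of the acute phase response (1.18 ± 0.38, adjusted p = 0.0455, 4 of 8), and Klf4 (0.94 ± 0.21, adjusted p = 0.0107, 3 of 8). Of 40 kept feedback and effector genes (44 listed), 4 rose and none fell, with a median of 0.34. Among them were Socs3, the inhibitor of cytokine signals (2.31 ± 0.42, adjusted p = 0.00423, 7 of 8), Ier3, a regulator of cell survival (1.39 ± 0.30, adjusted p = 0.00998, 5 of 8), and Mcl1, which protects cells from apoptosis (0.68 ± 0.15, adjusted p = 0.0118, 6 of 8). That share of called genes, 4 of 40, lies near the share over all genes.

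Of 12 kept genes for other AP-1 and related leucine zipper factors (15 listed), 3 rose and none fell, with a median of 0.45. They were Atf4, the effector of the integrated stress response (0.90 ± 0.21, adjusted p = 0.0139), the small Maf protein gene Mafg (0.46 ± 0.15, adjusted p = 0.0433) and Atf2, a partner of Jun (0.43 ± 0.11, adjusted p = 0.0244). Atf4 averaged 338 ± 86.2 TPM with melanoma and lisinopril and 296 ± 132 TPM with melanoma (SD, n = 4 each), against 168 ± 22.6 TPM with lisinopril (n = 3) and 162 ± 51.8 TPM in controls (n = 4). Mafg averaged 40.2 ± 8.71 TPM with melanoma and lisinopril against 22.8 ± 1.48 TPM with lisinopril. Without the drug, Mafg averaged 27.1 ± 3.22 TPM with melanoma against 24.7 ± 6.69 TPM in controls. Of 26 kept upstream kinases, SRF cofactors and CREB family genes (28 listed), 5 rose (19.2%) and 1 fell (3.8%), shares near the 14.5% and 3.45% of all genes, with a median of 0.06, below the 0.17 of all genes. Rps6ka3, the kinase RSK2 that phosphorylates CREB, rose by 0.70 ± 0.16 (adjusted p = 0.0146, 8 of 8 above all tumour-free libraries), and the coactivators Crebbp and Ep300 rose by 0.61 ± 0.16 each (adjusted p = 0.0234 and 0.0248). Mkl1, an SRF coactivator, fell by 0.88 on the log2 scale (SE 0.22, adjusted p = 0.0208, 5 of 8 below all tumour-free libraries).

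Genes around the NR4A receptors were read in the same way. Of 16 genes that depend on Nr4a1 in muscle or are metabolic genes linked to it, all kept, 3 rose and none fell, with a median of 0.19. That share, 18.8%, lies near the 14.5% of all genes. Lpin1, a phosphatidate phosphatase and lipid regulator, rose by 1.21 ± 0.16 (adjusted p = 9.75e-04, 8 of 8), the fatty acid transporter gene Cd36 by 0.71 ± 0.16 (adjusted p = 0.0107, 0 of 8), and the adiponectin receptor gene Adipor2 by 0.38 ± 0.12 (adjusted p = 0.0451, 7 of 8). Cd36 averaged 290 ± 34.5 TPM with melanoma and lisinopril against 140 ± 14.3 TPM with lisinopril. Without the drug, Cd36 averaged 288 ± 47.2 TPM with melanoma against 232 ± 94.85 TPM in controls. Of 21 kept partners and related receptors (22 listed), 8 rose and none fell, with a median of 0.24. They included the retinoid-related orphan receptor gene Rora (1.12 ± 0.25, adjusted p = 0.0107, 8 of 8) and the retinoid X receptor gene Rxra (0.65 ± 0.16, adjusted p = 0.0175, 7 of 8), with which Nr4a1 and Nr4a2 can pair. Of the listed genes that are not members, limma called Lpin1 in both arms taken singly, and Klf4, Cd36, Socs3 and Nfil3 only with the drug. No other was called in either arm alone. These lists describe counts, and no list was set against others by a test.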

How the data were processed

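RNA of mouse tibialis anterior muscle was extracted with Trizol and sequenced as 15 stranded mRNA libraries on an Illumina NovaSeq, per the labels' protocols. The authors deposited 1 table of TPM per gene symbol, and the submitters' processing notes name build mm10. No source used here states the aligner, counter, annotation or filters. Each library summed to 1000000 TPM, so sequencing depth is unknown and no counting interval could be given.

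TPM were transformed to log2(TPM + 1), and 11923 of 47643 symbols with at least 1 TPM in at least 3 libraries were fitted with limma 3.58.1 in R 4.3.3. The fit had 4 group means, a trended variance and 14.8 total degrees of freedom. Tests were two-sided, with Benjamini-Hochberg adjustment over all kept genes within a comparison and a threshold of 0.05. On simulated data the fit was tested for recovery of set fold changes. The average tumour effect shares its libraries with the other comparisons. Limma p-values set a difference between group means against the spread between libraries within groups, moderated over all kept genes. What that spread covers is unknown beyond the label of biological replicates.

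The members, lists and comparisons were chosen with earlier results of these data known. Named genes were all 10 members, up to 3 called genes in each direction of the average tumour effect from each list, and the 3 genes closest to Fos and to Nr4a3; 1 gene so chosen is not reported here. Genes outside this rule are identified as chosen after their values were seen. Correlations used 100000 permutations of the 15 libraries without regard to group, adjusted over 45 pairs. Python 3.11.15 with numpy 2.4.6 and pandas 2.3.3 made the tables, and matplotlib 3.10.9 the figures. Alternatives were another pseudocount (0.1), no filter or one at an average of 5 TPM, 3 other scalings, other variance models, the replicate number as a block, only the groups compared, and leaving out libraries. Gene positions came from GENCODE M21 and promoters from RefSeq.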

Additional observations from a re-analysis of the deposited data

Results flagged for a closer look

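Of 30 gene and group combinations with 4 libraries, 2 held a library far from the other 3, and chance gives about 1 in 20. Nr4a2 reached 8.18 TPM in control 2, where the other controls had 1.39 to 1.93 TPM. This library also held far more red blood cell transcripts than the rest. Ier2 reached 108 TPM in melanoma 1, where the other melanoma libraries had 68.2 to 71.0 TPM.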

How the results depend on the processing

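The number of members called in melanoma plus lisinopril against lisinopril, 1, was 0 with no filter and 0 to 1 when single libraries were left out. In the mean tumour effect the number, 2, was 1 each with no filter, quantile normalization, median-ratio rescaling and TPM recomputed without mitochondrial genes, 4 without control 2 and melanoma 2, and 1 to 5 when single libraries were left out. Calls over all genes in that effect were 3676 without control 2 and melanoma 2, and 743 to 3959 when single libraries were left out. No call of a member turned direction in any alternative run. Sign changes concerned uncalled values. For Nr4a2 in the mean tumour effect they were -0.11 after quantile normalization, -0.0933 after median-ratio rescaling, -0.0573 when mitochondrial genes were removed, -0.0064 with the replicate block, and -0.10 to 0.27 over left-out libraries. Over left-out libraries Nr4a2 ran from -0.0477 to 0.60 in melanoma against control and -0.35 to 0.13 in melanoma plus lisinopril against lisinopril. Ier2 was -0.22 under sample quality weights, -0.0138 after quantile normalization and -0.20 to 0.40 over left-out libraries in melanoma against control. In the mean tumour effect Ier2 was 0.0908 without control 2 and melanoma 2 and -0.23 to 0.0698 over left-out libraries. For Nr4a3 in lisinopril against control the values were 0.0777 after median-ratio rescaling, 0.0596 after quantile normalization and -0.47 to 0.21 over left-out libraries. The cause was not tested. In the drug comparisons and the interaction, 767 recomputed member values held 0 calls by limma (lowest adjusted p = 0.507) and 67 sign changes. Calls over all genes ran from 5 to 1710 in melanoma against control (77 as reported), 5 to 2303 in melanoma plus lisinopril against lisinopril (177) and 743 to 4660 in the mean tumour effect (2141). The share of higher calls in the mean tumour effect, 80.8%, was 49.1% after median-ratio rescaling and 60.8% when mitochondrial genes were removed, and quantile normalization gave 1176 higher and 1174 lower calls. The median gene, 0.168, stood at 0.005, 0.064 and 0.001 in these 3 settings. In melanoma plus lisinopril against lisinopril the share, 90.4%, was 69.9% after median-ratio rescaling and 72.4% after quantile normalization, and in melanoma against control, 71.4%, it was 55.4% when mitochondrial genes were removed. Of same-numbered pairs of libraries 9 of 21 had a correlation over 0.1 (median 0.083), and of differently numbered pairs 15 of 63 (median -0.035). Same-numbered pairs thus had the higher median, and these values do not settle whether the numbers pair the samples. The main fit used no block, and the replicate number was a block in an alternative only. With the replicate block, Jun was also called in the mean tumour effect (0.67, adjusted p = 0.0468), and calls over all genes were 120 in melanoma against control, 356 in melanoma plus lisinopril against lisinopril and 2172 in the mean tumour effect. Depth is unknown, and Nr4a2, near 2 TPM, is the member that low values limit most.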

Other observations

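The 5 genes whose 4 libraries with melanoma and lisinopril were all above the 11 others were, beside Nr4a3, Asb5, Rbm24, Zdhhc23 and Zfp109, chosen after their values were seen. Asb5, a gene of the ankyrin repeat and SOCS box family, had 244 to 784 TPM with melanoma and lisinopril and 134 to 216 TPM in the other libraries. Rbm24, an RNA-binding protein that guides splicing in muscle, had 110 to 155 TPM against 71.4 to 106 TPM. Zdhhc23, a palmitoyltransferase gene, had 4.80 to 10.4 TPM against 0.456 to 4.00 TPM, and Zfp109, a zinc finger gene, 1.22 to 1.60 TPM against 0.661 to 1.21 TPM. The Zfp109 values lay close to the filter of 1 TPM, and its ranges were barely apart. Whether 5 genes are more or fewer than a random grouping of libraries would give was not tested.

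The balance of subunits within AP-1 also varied between libraries. Fosb over Fos was 0.179 to 0.215 with melanoma and lisinopril and 0.163 to 0.388 with melanoma, against 0.229 to 0.344 with lisinopril and 0.278 to 0.616 in controls. Junb over Jun was 0.517 to 1.32 with melanoma and lisinopril and 0.838 to 2.20 with melanoma, against 0.971 to 1.28 with lisinopril and 0.947 to 1.58 in controls. These ratios were chosen after the values were seen and were not tested.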
